A study of Saccharomyces cerevisiae with 22 samples.

Results

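The binding sites of MYC-tagged Sus1 at 25 °C were compared between spt7-1180 and spt8Δ, both of which are described as strains that hold the SLIK form of the SAGA complex and not the full SAGA. The comparison rests on the 2 peak lists that the authors deposited for these conditions, 18085 peaks in spt7-1180 and 16593 in spt8Δ, which make 34678 of the 106828 peaks in the 6 lists of the series. The samples behind them are 6 of 22, named as replicates 1 to 3 of each strain. Both strains carry SUS1-MYC::HIS3 in the BY4741 background (mating type a, with ura3-Δ0, met15-Δ0, leu2-Δ0 and his3-Δ1), with spt7-1180::KanMX4 in the one and spt8::KanMX4 in the other. They were grown in YPD at 25 °C to mid-log phase and cross-linked with formaldehyde. The spt7 strain is labelled as a deletion, but the strain table gives a truncation after codon 1180, and whether a strain is 1 clone is not stated. The wild type with the same tag and the same mutants after 15 min at 37 °C are used below only as further lists. The labels name 3 replicates and the study's methods 2, and no source used here says which libraries went into a list. There is thus 1 pooled list for each strain and no spread between replicates, so that no difference was tested, and the Wilson 95% intervals cover counting error only. The no-tag strain was not analysed here.

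Sus1 is a small protein shared by the deubiquitinase module of SAGA, which removes ubiquitin from histone H2B, and by TREX-2, which links transcription to mRNA export at the nuclear pore. Spt7 is a scaffold of SAGA, and its C-terminal end holds Spt8, a subunit that contacts the TATA-binding protein. In SLIK a shorter Spt7 lacks that end, Spt8 is absent, and Rtg2, a regulator of the retrograde response from mitochondria to the nucleus, is a subunit.

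The sequences under the sites on which the comparison turns are shown here on the plus strand of the sacCer3 (R64) reference, 201 bp centred on a summit. The first 3 are the best-ranked sites that both strains shared, all at tRNA genes, centred on the spt7-1180 summit. The capitals mark the fixed letters of the B box GTTCNANNC, the internal promoter element of tRNA genes.
HSX1, tRNA-Arg (chr10:538464-538664): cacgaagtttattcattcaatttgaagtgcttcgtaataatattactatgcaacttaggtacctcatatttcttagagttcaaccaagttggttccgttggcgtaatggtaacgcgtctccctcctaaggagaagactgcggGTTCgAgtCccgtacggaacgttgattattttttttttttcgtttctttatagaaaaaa
YNCG0028W, tRNA-Leu (chr7:700566-700766): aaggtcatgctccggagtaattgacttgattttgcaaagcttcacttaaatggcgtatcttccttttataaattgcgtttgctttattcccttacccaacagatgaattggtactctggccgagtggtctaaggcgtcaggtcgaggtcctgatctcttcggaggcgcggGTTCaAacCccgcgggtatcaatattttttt
YNCP0016W, tRNA-Thr (chr16:744168-744368): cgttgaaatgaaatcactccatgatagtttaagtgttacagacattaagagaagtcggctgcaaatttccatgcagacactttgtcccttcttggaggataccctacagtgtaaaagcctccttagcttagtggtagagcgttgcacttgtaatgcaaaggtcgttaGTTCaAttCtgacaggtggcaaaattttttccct
The next 5 are among the highest sites of spt8Δ, which were weak or not listed in spt7-1180, centred on the spt8Δ summit. The capitals mark the fixed letters of CGGNNNNNNNNNCGG on either strand, which in the MIG2 window was found at 2 adjacent places.
Upstream of YHR210C (chr8:521891-522091): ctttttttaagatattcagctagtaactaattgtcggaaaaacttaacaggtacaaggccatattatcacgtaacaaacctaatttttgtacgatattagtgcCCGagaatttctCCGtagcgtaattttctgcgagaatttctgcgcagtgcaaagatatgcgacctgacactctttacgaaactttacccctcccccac
Upstream of HXT3 (chr4:1164919-1165119): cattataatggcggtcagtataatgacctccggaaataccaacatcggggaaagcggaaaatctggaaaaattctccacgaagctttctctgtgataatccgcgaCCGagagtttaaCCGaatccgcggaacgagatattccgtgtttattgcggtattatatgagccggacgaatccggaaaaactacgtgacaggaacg
Upstream of MIG2 (chr7:95416-95616): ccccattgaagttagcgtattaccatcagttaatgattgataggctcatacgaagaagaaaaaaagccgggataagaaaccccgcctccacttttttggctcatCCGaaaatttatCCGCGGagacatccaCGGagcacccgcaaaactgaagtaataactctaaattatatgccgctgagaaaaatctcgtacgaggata
Between MAL11 and MAL12 (chr7:1076180-1076380): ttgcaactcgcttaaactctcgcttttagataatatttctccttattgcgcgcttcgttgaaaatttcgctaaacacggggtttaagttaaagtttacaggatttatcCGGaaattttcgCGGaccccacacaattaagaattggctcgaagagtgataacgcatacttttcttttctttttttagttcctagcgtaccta
Between IMA5 and HXT8 (chr10:26508-26708): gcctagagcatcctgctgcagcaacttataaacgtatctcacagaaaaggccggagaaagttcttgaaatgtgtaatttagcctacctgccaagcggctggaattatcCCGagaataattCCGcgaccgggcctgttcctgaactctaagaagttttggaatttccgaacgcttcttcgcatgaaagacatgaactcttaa

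For each peak the lists give a fold enrichment, the ratio of reads at the summit to a local background, whose source is not given. As the lists differed in depth, sites were compared by position and by rank within a list. The fold enrichment had a median of 2.67 and a highest value of 19.7 in spt7-1180, against a median of 3.32 and a highest value of 946 in spt8Δ. Solving fold enrichment and -log10 p for each peak gave a lowest background of 22.2 reads in spt7-1180 and of 7.99 reads in spt8Δ, and a median height of 70.0 and 34.0 reads. The spt7-1180 list was therefore the deeper one. Its peaks had a median width of 69 bp and covered 12.7% of the genome, against 53 bp and 10.2% in spt8Δ. No chromosome stood apart: the median background of a chromosome lay between 0.968 and 1.05 times that of the whole list in spt7-1180 and between 0.953 and 1.06 times in spt8Δ. The list names were looked at against the strain loci, but this gave little. SPT8 held no summit in any of the 6 lists, and the part of SPT7 after codon 1180 held 0 summits in spt7-1180, 1 in spt8Δ and 0 in the wild type at 25 °C, so the loci did not separate the strains.

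A minority of the sites was found at the same place in both strains. Of the 18085 summits of spt7-1180, 4759 lay within 50 bp of an spt8Δ summit, or 26.3% (95% interval 25.7 to 27.0%), where 13.9% of the genome lies that close to an spt8Δ summit. Of the spt8Δ summits 4758 were shared, or 28.7% (28.0 to 29.4%), where 15.1% of the genome lies within 50 bp of an spt7-1180 summit. Sharing was thus 1.90 times the genome share in both directions. The ratio was larger at closer range, 2.55 times within 10 bp and 1.58 times within 100 bp for spt7-1180 summits. Among the 4759 shared summits the median distance was 21 bp, 110 lay at the same base, and the spt8Δ summit lay to the right of 2337 and to the left of 2312. The wild type at 25 °C gave similar figures. Its summits lay within 50 bp of 27.4% (26.7 to 28.0%) of the spt7-1180 summits and of 24.7% (24.1 to 25.4%) of the spt8Δ summits, at 1.94 and 1.75 times the genome share of 14.1%. By this measure spt7-1180 shared about as many of its sites with spt8Δ as with the wild type.

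Strong sites were shared more often than weak ones in both strains. In the strongest 10% of the list 40.9% (38.6 to 43.2%) of the spt7-1180 summits and 41.2% (38.8 to 43.6%) of the spt8Δ summits were shared. In the weakest 10% the shares were 19.3% (17.5 to 21.2%) in spt7-1180 and 19.8% (17.9 to 21.7%) in spt8Δ, still above the genome shares. The order of the sites was less alike than their positions. Over the 4751 pairs of summits that were each other's nearest, Spearman's rho of the ranks was 0.20, and 236 pairs were in the top 10% of both lists. Among the pairs, those at tRNA genes stood out, with a rho of 0.65 over 254 pairs within 200 bp of a tRNA gene and of 0.12 over the other 4497.

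**Figure D1:**
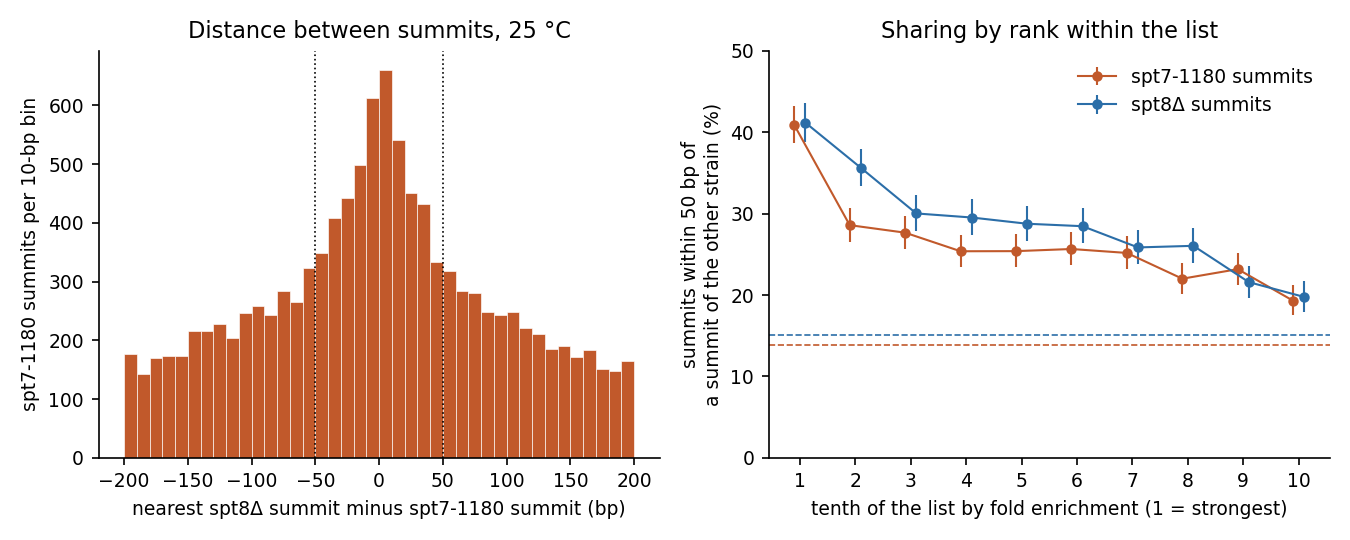
Left, the number of spt7-1180 summits in 10-bp bins of the distance to the nearest spt8Δ summit, with dotted lines at 50 bp; the counts are highest next to 0. Right, the share of summits (%) within 50 bp of a summit of the other strain in rank classes of 10% of each list, with Wilson 95% intervals and dashed lines at the share of the genome near a summit of the other strain (13.9% for spt7-1180 summits, 15.1% for spt8Δ summits); both lists run from about 41% in the strongest 10% to below 20% in the weakest.

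Most of the sites shared at the very top of both lists lay at tRNA genes, which RNA polymerase III transcribes. Of the 100 strongest summits, 95 in spt7-1180 and 51 in spt8Δ lay within 200 bp of a tRNA gene, a region that makes up 1.08% of the genome. Of the 1000 strongest, 226 in spt7-1180 and 148 in spt8Δ did so. Between the top 100 of each list 34 summits were shared, where 0.0837% of the genome lies within 50 bp of such a summit. Of them 2 lay away from tRNA genes. Between the top 1000 of each list 168 were shared, where the genome share was 0.837%. Away from tRNA genes 45 of these were shared, or 5.81% of 774 such spt7-1180 summits and 5.28% of 852 such spt8Δ summits. Among them were sites inside the translation elongation factor genes YEF3 (rank 224 in spt7-1180 and 181 in spt8Δ) and TEF4 (283 and 57). Others lay at the snoRNA gene SNR30 (179 and 110), between HIP1 and TDH3 (183 and 266), and inside PRP6 (240 and 384) and GRX8 (286 and 401). All of these were named here after their ranks were seen. Over the whole lists, tRNA genes accounted for 5.34% (4.73 to 6.01%) of the shared spt7-1180 summits but 0.885% (0.740 to 1.06%) of those found in spt7-1180 alone, and for 5.38% (4.77 to 6.06%) of the shared spt8Δ summits but 0.963% (0.803 to 1.16%) of those found in spt8Δ alone. The unshared sites were thus no more frequent at tRNA genes than the genome itself.

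Nearly every tRNA gene was marked in both strains. Of the 275 tRNA genes of the nuclear genome, 269 had a summit within 200 bp in spt7-1180 and 259 in spt8Δ. Both strains had one at 258 genes, spt7-1180 alone at 11, spt8Δ alone at 1, and neither at 5. The exception of spt8Δ was YNCN0008C, a tRNA-Asp gene, with a weak summit of 2.67. Of the 5 genes without a summit, SUP53 (tRNA-Leu), YNCC0008W (tRNA-Met) and YNCC0009C (tRNA-Lys) lie on chromosome 3, YNCK0014W (tRNA-Val) on 11 and YNCL0051C (tRNA-Ile) on 12. The strongest summit of a tRNA gene had a median fold enrichment of 7.15 in spt7-1180 and of 6.26 in spt8Δ, which is the percentile 99.2 of the first list and 96.0 of the second, so tRNA genes ranked lower among the spt8Δ sites. In the top 10% of the list were 234 tRNA genes in spt7-1180 and 162 in spt8Δ, 155 of them in both. Across the 258 genes with a summit in both strains Spearman's rho of the fold enrichment was 0.60, a description over genes that share their libraries. The summit lay before the first base of the tRNA gene at 237 of 269 genes in spt7-1180 and at 194 of 259 in spt8Δ, with a median position of -13 and -12 bp. By amino acid, and over the genes with a summit, the median percentile ran from 98.3 (tRNA-Glu) to 99.6 (tRNA-Met) in spt7-1180, and from 78.2 (tRNA-Tyr, 7 of 8 genes) to 99.4 (tRNA-Cys) in spt8Δ.

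**Figure D2:**
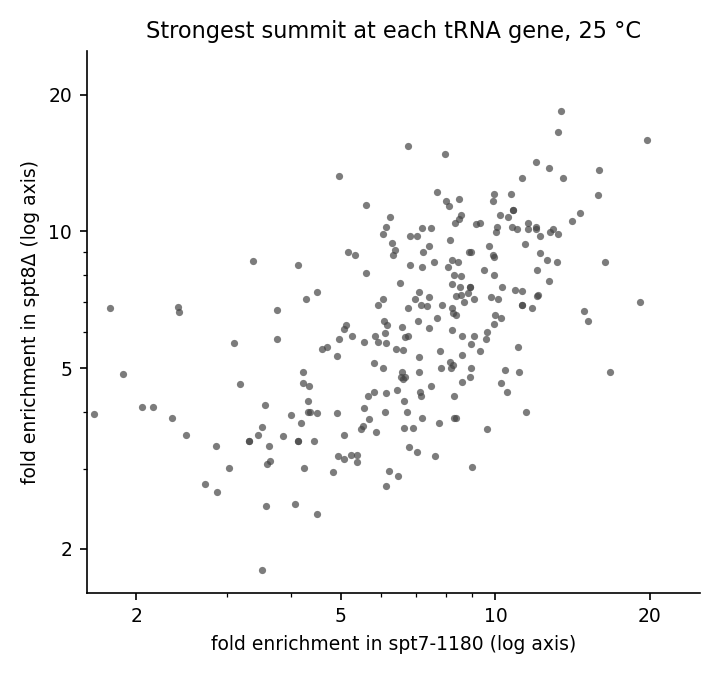
Fold enrichment of the strongest summit within 200 bp of each of the 258 tRNA genes that had one in both strains, spt7-1180 on the x axis and spt8Δ on the y axis, both log axes; each point is 1 gene. The points rise together (Spearman's rho 0.60) with a wide scatter.

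The 10 shared pairs with the best worst rank were 9 tRNA genes and SNR52, a snoRNA gene that RNA polymerase III also transcribes. The best pair was at HSX1, a tRNA-Arg gene on chromosome 10, with a fold enrichment of 13.4 (rank 13) in spt7-1180 and 18.5 (rank 20) in spt8Δ. The pair at YNCG0028W had 13.3 (rank 15) in spt7-1180 and 16.6 (rank 23) in spt8Δ, with both summits at the same base. YNCP0016W was the top summit of spt7-1180, at 19.7, and stood at 15.9 (rank 25) in spt8Δ, with 6.96 (rank 196) in the wild type. These are the 3 tRNA windows printed above, and each holds the B box a short way after the summit, within the gene. The letters GTTCNANNC on either strand were in 84.3% (79.3 to 88.2%) of the 254 windows of 201 bp around shared tRNA summits of spt7-1180, against 7.34% of all such windows of the genome. SNR52 had 13.5 (rank 12) in spt7-1180, 14.9 (rank 28) in spt8Δ and 17.2 (rank 4) in the wild type, with the 2 mutant summits 15 bp apart.

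Because of SNR52, 3 other genes transcribed by RNA polymerase III were looked up after these values were seen, and the 5S rRNA genes were not. SCR1, the RNA of the signal recognition particle, had a fold enrichment of 10.1 (rank 53) in spt7-1180 and 14.6 (rank 30) in spt8Δ, at -2 and -4 bp from the first base of the gene. RPR1, the RNA of RNase P, had 5.23 (rank 370) in spt7-1180 and 8.08 (rank 178) in spt8Δ, at -61 and -56 bp. SNR6, the U6 spliceosomal RNA, had 13.1 (rank 17) in spt7-1180 but 4.65 (rank 2755) in spt8Δ. These 4 had a summit in both strains, and of them SNR6 was far down in spt8Δ.

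The top of the spt8Δ list was unlike that of spt7-1180. The 17 highest spt8Δ summits exceeded the highest fold enrichment of spt7-1180, 19.7, and ran from 19.8 to 946; the next value below, upstream of GLN1, was 19.1. They were chosen after their values were seen and are a description. None of the 17 lay in coding sequence, which holds 79.6% of all spt8Δ summits and makes up 72.3% of the genome. None lay within 200 bp of a tRNA gene, and 7 lay within 30 kb of a chromosome end, a zone that makes up 7.95% of the genome. All 17 lay within 1000 bp before a start codon, a wider limit than the 500 bp used below, and its share of the genome was not computed. Their peaks were wide, 152 to 740 bp with a median of 367 bp, and their heights ran from 193 to 13355 reads. These heights made up 5.94% of the summed peak heights of the spt8Δ list.

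The summit upstream of YHR210C, an uncharacterised gene on chromosome 8, had a fold enrichment of 2.41 (rank 11906) in spt7-1180, against 946 (rank 1) in spt8Δ. HXT3, a hexose transporter gene, had 7.02 (rank 154) in spt7-1180 and 832 (rank 2) in spt8Δ, 359 bp before the start codon. MIG2, a repressor of glucose-repressed genes, had 2.32 (rank 12891) in spt7-1180 and 332 (rank 3) in spt8Δ, both summits at the same base. IMA5 and HXT8, an isomaltase and a hexose transporter gene that share a promoter region, had 2.73 (rank 8399) in spt7-1180 and 237 (rank 6) in spt8Δ. These were the 4 sites of the 17 with a summit within 50 bp in spt7-1180, where 15.1% of the genome lies that close. In spt7-1180 all but HXT3 were at rank 8399 or below.

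The other 13 sites had no spt7-1180 summit within 50 bp. As the spt8Δ peaks were wide, some of them still held an spt7-1180 summit farther off. These lay at -254 bp from the spt8Δ summit for MAL31 and MAL32, -85 bp for RIB4 and RRP40, 75 bp for IMA1 and MAL13, and -168 bp for PMA1. The site between MAL11, a maltose transporter gene, and MAL12, a maltase gene, reached 290 in spt8Δ, and the site between MAL31 and MAL32, the corresponding pair on chromosome 2, reached 249. The windows of these 2 sites are 87.0% identical without gaps, and how well reads of the 2 loci were told apart was not tested. SKS1, a protein kinase gene of the response to low glucose, had 101, RIB4 and RRP40 (riboflavin synthesis and an RNA exosome subunit) 83.9, and UBC4, a ubiquitin-conjugating enzyme gene, 73.1. Of the remaining 8 sites, those between IMA1 and MAL13 (54.7) and between IMA2 and HXT11 (28.9) again stood at isomaltase genes. REE1 had 52.5, ZNF1, a zinc cluster transcription factor gene, 33.6, CDC19, the main pyruvate kinase gene, 32.2, RGI2 and VHR1 30.3, PMA1, the plasma membrane proton pump gene, 29.4, and PCL1, a cyclin gene, 19.8. Some of these summits lay far from the start codon, at -525 bp for ZNF1, -732 bp for CDC19 and -774 and -821 bp for RGI2 and VHR1. The PMA1 summit lay at -999 bp and was nearer the start codon of YGL007C-A, at -638 bp. Such summits fall outside the upstream regions of 500 bp used below.

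The same places were looked up in the other lists. In the wild type at 25 °C 10 of the 17 sites had a summit within 50 bp, with fold enrichments from 2.17 to 24.6, and YHR210C (24.6) and HXT3 (20.2) were its 2 strongest peaks. At 37 °C spt7-1180 had a summit at 7 sites, of up to 6.47, spt8Δ at 9, of up to 7.27, and the wild type at 11, of up to 39.6 (HXT3). In spt8Δ the high values were thus seen at 25 °C and not at 37 °C. Whether they came from all libraries of spt8Δ or from 1 of them cannot be told apart in a pooled list.

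**Figure D3:**
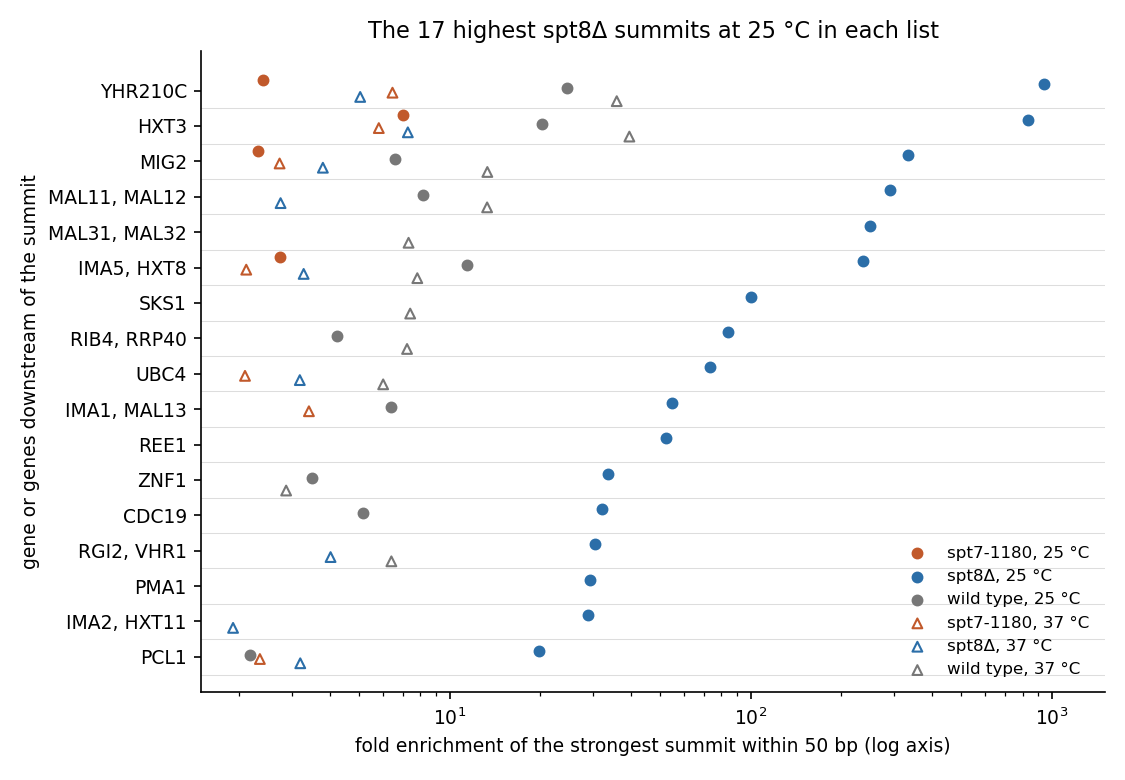
Fold enrichment (log axis) of the strongest summit within 50 bp of each of the 17 highest spt8Δ summits at 25 °C, by list, with the downstream genes on the y axis; filled circles are 25 °C, open triangles 37 °C, and a missing point means no summit listed. The spt8Δ points at 25 °C run from 19.8 to 946, and no other list exceeds 39.6.

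The windows of these sites shared the letters CGGNNNNNNNNNCGG. Within 201 bp, 10 of the 17 held a match on either strand, or 58.8% (36.0 to 78.4%), against 2.02% of the windows of that length in the genome, 1.85% of the windows at all spt7-1180 summits and 2.13% at all spt8Δ summits. The 8 highest sites each held one. In the printed windows the matched letters begin just after the central base. The motif was found by searching these windows after they were chosen, so its share is a description of them. Over the lists as a whole, within 101 bp, TATAAA was in 6.03% (5.64 to 6.45%) of the windows at summits of spt7-1180 alone and in 6.33% (5.90 to 6.78%) at those of spt8Δ alone, against 7.94% in the genome. CGGNNNNNNNNNCGG was in 1.01% (0.850 to 1.19%) of the spt7-1180-only and 1.18% (1.00 to 1.39%) of the spt8Δ-only windows, against 0.943% in the genome. TTACCCG, the letters bound by the general factor Reb1, was in 40 of the 13326 spt7-1180-only windows (95% interval 0.221 to 0.408%) and in 56 of the 11835 spt8Δ-only windows (0.365 to 0.614%), against 0.574% in the genome. A Rap1 site was in 2 spt7-1180-only windows (0.0150%) and 9 spt8Δ-only windows (0.0760%), against 0.0770% in the genome. AGGGG, the stress response element, was in 6.92% (6.50 to 7.36%) of the spt7-1180-only and 6.19% (5.77 to 6.64%) of the spt8Δ-only windows, against 6.05% in the genome. The base composition was also close, with a mean GC content of 37.8% at spt7-1180-only, 37.3% at spt8Δ-only and 38.6% at shared spt7-1180 summits, against 35.1% in the genome.

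Sites found in 1 strain alone were read by the same rule. The 10 strongest spt7-1180 summits without an spt8Δ summit within 50 bp had fold enrichments of 7.97 to 10.8, and 8 of them lay at tRNA genes. At YNCL0001W, a tRNA-Pro gene, the spt7-1180 summit had 10.6 and the nearest spt8Δ summit was 69 bp away. At YNCE0026W, a tRNA-Val gene, it had 9.20 and the nearest spt8Δ summit was 314 bp away. The other 2 lay in the genes of ribosomal proteins of the small subunit, RPS11A (9.56) and RPS26A (7.97). Most of these sites therefore differed in the place of the summit at a kind of gene that both strains shared. The 10 strongest of spt8Δ were those of the 13 sites above with a fold enrichment of 30.3 to 290, and none at a tRNA gene.

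Coding sequence held most summits of both strains. It held 83.8% (83.2 to 84.4%) of the summits found in spt7-1180 alone and 78.7% (78.0 to 79.5%) of those found in spt8Δ alone, where 72.3% of the genome is coding. The 500 bp before start codons held 13.8% (13.3 to 14.4%) of the spt7-1180-only and 17.6% (16.9 to 18.3%) of the spt8Δ-only summits, against 12.9% of the shared spt7-1180 summits, 13.0% of the shared spt8Δ summits and 21.3% of the genome. Upstream regions were thus below their genome share in every set, and least so at the sites of spt8Δ alone. Of the bins before the start codon, that from -200 to -101 bp differed most, with 17.8 of 1000 spt7-1180-only summits and 30.8 of 1000 spt8Δ-only summits. The bin next to the start codon, from -100 to -1 bp, held 27.5 in spt7-1180 alone and 36.6 in spt8Δ alone. That from -500 to -401 bp held 46.2 in spt7-1180 alone and 49.6 in spt8Δ alone. The spt8Δ list was also the shallower one, and the part of depth in this difference was not tested. Elements of LTR and Ty type held 0.365% of the spt7-1180 and 0.410% of the spt8Δ summits, where they make up 3.07% of the genome.

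The density of summits in coding regions was compared gene by gene. Over the 3592 genes with a coding region of at least 1000 bp the median was 1.71 summits per kb in spt7-1180 and 1.49 in spt8Δ, and Spearman's rho of the 2 was 0.54 (0.57 between spt7-1180 and the wild type, 0.50 between spt8Δ and the wild type). No summit was found in 492 of these genes in spt7-1180 and in 488 in spt8Δ, 281 of them in both. FBA1, the fructose bisphosphate aldolase gene, had 5 in both strains, and RPL3, a ribosomal protein gene, also 5 in both. The genes with large differences were named after their counts were seen. TOR2, a growth-regulating kinase gene, had 26 in spt7-1180 and 13 in spt8Δ. UTP20, a ribosome assembly gene, had 25 and 12, and TOM1, a ubiquitin ligase gene, 28 and 17. RRP5, another ribosome assembly gene, had 15 and 5, and ECM16 12 and 3. More were found in spt8Δ at CDC39, the scaffold of the Ccr4-Not complex, with 13 in spt7-1180 and 23 in spt8Δ. The same held for RQC2 (5 and 13), GPB2 (2 and 9), ALY2 (2 and 8) and BPH1 (8 and 14). These counts were set neither against gene length nor against the greater length of the spt7-1180 list.

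At the level of upstream regions the strains overlapped in part. Within the 500 bp preceding the start codon a summit was listed for 2278 of the 6002 genes in spt7-1180 (38.0%) and for 2507 in spt8Δ (41.8%). Both strains had one at 1285 genes (21.4%), against 952 from the product of the 2 shares, spt7-1180 alone at 993 (16.5%) and spt8Δ alone at 1222 (20.4%). The shared genes were 56.4% of those of spt7-1180 and 51.3% of those of spt8Δ. Among these the strongest summits lay within 50 bp of each other at 497 of 1285 genes (38.7%), with a median distance of 83 bp. Of all upstream summits 25.1% were shared in spt7-1180 and 22.9% in spt8Δ. These shares are not alike, as the 1285 genes were chosen for a summit of both strains in the same 500 bp. The share that 2 summits placed freely in such a region would give was not computed. Spearman's rho of the rank, in which genes without a summit share the percentile 31.0 in spt7-1180 and 29.1 in spt8Δ, was 0.29 over all genes. In the top 10% of both lists were 187 genes, against 61.2 from the product of the shares. Upstream regions overlap neighbouring genes and tRNA genes, so a gene can take its rank from either.

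Of the 10 genes with the largest differences in rank on the spt8Δ side, 6 were named above, MAL11, MAL12, MAL32, UBC4, IMA2 and HXT11, followed by EPT1, a phospholipid synthesis gene, at 18.1, YDR524C-B and SNA2, which share a summit at 16.8, and CBF2, a kinetochore gene, at 13.2. None of these 10 had an upstream summit in spt7-1180. On the spt7-1180 side the fold enrichments were lower, from 4.83 to 9.35, and none of the 10 had an upstream summit in spt8Δ. YOR072W-B (9.35) shares its site with the tRNA gene SUF11. YGR109W-A and YGR109W-B (8.57), the genes of a Ty3 element, share theirs with the tRNA-Cys gene YNCG0030C. In spt8Δ these tRNA genes had summits too, of 5.47 at SUF11 and 10.9 at YNCG0030C, outside the upstream regions counted here. The nearest spt8Δ summits lay 57 and -97 bp from those of spt7-1180, so these differences turn on the place of the summit. The summits of SVP26 (5.60) and JJJ2 (5.36) also lie within 200 bp of a tRNA gene, the tRNA-Thr gene YNCH0015W and the tRNA-Glu gene YNCJ0002C. At these tRNA genes spt8Δ had no summit within 200 bp. The others were DBP5, an mRNA export helicase gene, at 6.03, PRM7 at 5.21, NFI1, a SUMO ligase gene, at 5.04, MET7 at 4.87 and DOT1, the histone H3 lysine methyltransferase gene, at 4.83. A peak that just misses the threshold of its list, or lies just outside the 500 bp, is counted as absent and takes the shared lowest percentile.

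Genes of the complexes themselves were read beside the shares of all genes, 38.0% in spt7-1180, 41.8% in spt8Δ and 21.4% in both. Of the 20 SAGA and SLIK subunit genes 8 had an upstream summit in spt7-1180 and 5 in spt8Δ, with 3 in both. TAF6, a subunit shared with TFIID, had a fold enrichment of 3.06 in spt7-1180 and 7.12 in spt8Δ, HFI1 3.23 and 2.34, and GCN5, the acetyltransferase, 2.80 and 2.67. SPT7 (3.36), TAF9 (2.72), NGG1 (2.93), SGF29 (2.88) and RTG2 (2.80) had one in spt7-1180 alone, and TAF10 (3.15) and TRA1 (3.36) in spt8Δ alone. Apart from TAF6 in spt8Δ, the highest of these values was 3.36. Of the 5 TREX-2 genes SEM1, a small subunit also found in the proteasome, had 6.76 in spt7-1180 and 6.78 in spt8Δ, but both summits are those of the tRNA-Lys gene YNCD0026W beside it and are no measure of SEM1 alone. SAC3 and CDC31 were found in both strains as well, with 1.74 and 2.67 in spt7-1180 and 2.08 and 2.78 in spt8Δ, and THP1 in spt7-1180 alone (2.51). SUS1 had none.

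The retrograde genes were included because Rtg2 is a SLIK subunit. They had a summit at 6 of 11 genes in spt7-1180 and at 8 of 11 in spt8Δ, with 3 in both, beside 38.0%, 41.8% and 21.4% of all genes. Of the regulators, RTG1 had a fold enrichment of 3.10 in spt7-1180 and 3.95 in spt8Δ, RTG3 had 3.96 in spt7-1180 alone, and MKS1, the negative regulator, 2.25 in spt8Δ alone. Of the targets, DLD3 had 2.84 in spt7-1180 and 5.23 in spt8Δ and IDH1 1.98 and 4.23, with CIT1 in spt7-1180 alone (2.46) and CIT2 (2.37), ACO1 (3.89), IDH2 (3.38) and PYC1 (4.40) in spt8Δ alone. CIT2, a usual reporter of the pathway, was thus listed only in spt8Δ, at a low value.

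Of the 15 genes often used in work on SAGA, 7 had an upstream summit in spt7-1180 and 8 in spt8Δ, and 2 in both, beside the same shares of all genes. INO1, the inositol phosphate synthase gene, had a fold enrichment of 3.58 in spt7-1180 and 5.05 in spt8Δ with summits 2 bp apart, and TRP3 had 2.58 and 2.11. PHO5, an acid phosphatase gene, had 3.88 in spt7-1180 alone, as had GAL1 and GAL10, which share 1 summit between them (2.24), GAL7 (2.24) and ADH1 (2.94). SUC2, the invertase gene, had 5.12 in spt8Δ alone, with PDR5 (3.37), PHO84 (3.02), HIS3 (2.90), ARG1 (2.89) and HO (1.88). HIS3 is also the marker of the tag, and its part in this value was not tested.

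Of the lists, glycolytic genes had the widest gap between the strains, with an upstream summit at 2 of 17 in spt7-1180, 8 of 17 in spt8Δ and 2 of 17 in the wild type. TDH2 was the 1 gene found in both mutants (2.28 in spt7-1180, 3.67 in spt8Δ), TDH3 was in spt7-1180 alone (2.73), and the 7 of spt8Δ alone had 2.11 (GPM1) to 3.46 (TDH1). RP genes followed the same direction, with 44 of 137 in spt7-1180 (32.1%), 64 in spt8Δ (46.7%) and 56 in the wild type, 30 of them in both mutants. Heat-shock genes had 5 of 16 in spt7-1180 (31.25%) and 7 in spt8Δ (43.75%), and core histone genes 4 of 8 in spt7-1180 and 5 in spt8Δ. Over all genes the shares were 38.0% in spt7-1180, 41.8% in spt8Δ and 39.7% in the wild type at 25 °C. The heat-shock genes lay near these shares. The glycolytic sites counted here were weak, and lists of this size have a wide counting error. CDC19 is counted as absent in spt8Δ, because its spt8Δ summit of 32.2 lies at -732 bp, outside the 500 bp.

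**Figure D4:**
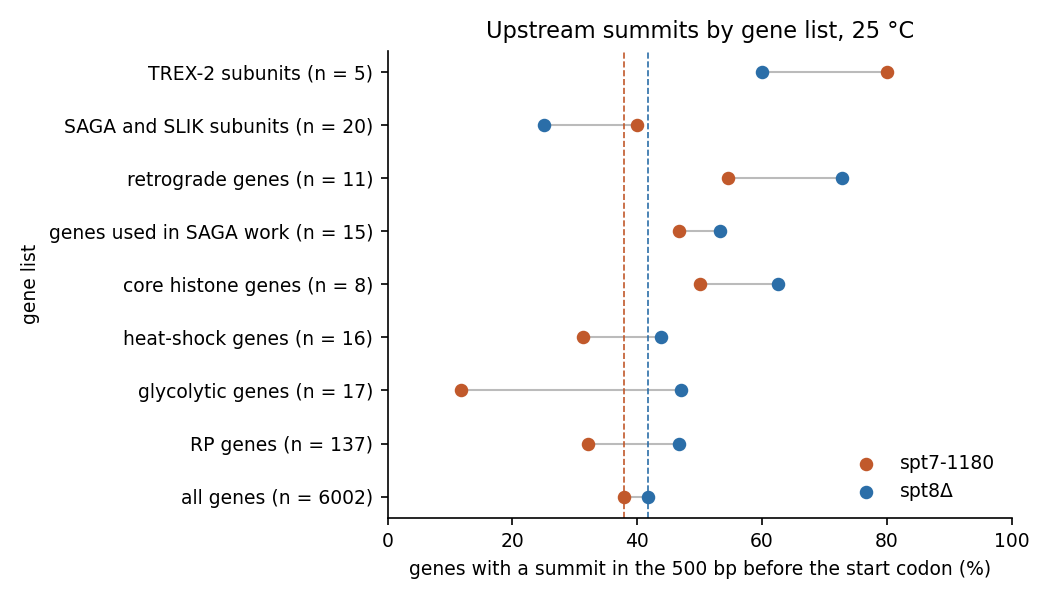
Share of the genes of each list (%) with a summit in the 500 bp that precede the start codon in spt7-1180 and spt8Δ at 25 °C, with dashed lines at the shares of all 6002 genes (38.0% in spt7-1180, 41.8% in spt8Δ). Glycolytic genes (2 and 8 of 17) show the widest gap, and the TREX-2 list has only 5 genes.

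The 37 °C lists of the same strains were not used in choosing which 25 °C summits were shared, so they show whether a site seen in 1 strain was seen there again. Of the 13326 summits found in spt7-1180 alone, 32.5% (31.7 to 33.3%) had a summit within 50 bp in spt7-1180 at 37 °C and 28.1% (27.4 to 28.9%) in spt8Δ at 37 °C, which as spt7-1180 minus spt8Δ is a difference of 4.31 percentage points (3.21 to 5.42). Of the 11835 found in spt8Δ alone, 27.8% (27.0 to 28.6%) had one in spt7-1180 at 37 °C and 23.5% (22.8 to 24.3%) in spt8Δ at 37 °C, which as spt8Δ minus spt7-1180 is a difference of -4.27 points (-5.38 to -3.15). Both sets were thus found more often in the 37 °C list of spt7-1180, the longer one with 20179 peaks against 17390 in spt8Δ. Set against the share of the genome near a summit of each list, 16.8% for spt7-1180 and 14.5% for spt8Δ, the spt7-1180-only summits were found at 1.93 and 1.94 times that share, and the spt8Δ-only summits at 1.65 times in spt7-1180 and 1.62 times in spt8Δ. With equal numbers of peaks the differences were 0.404 points (-0.742 to 1.55) for spt7-1180-only and -0.949 points (-2.03 to 0.128) for spt8Δ-only summits. The intervals of these differences treat the shares as independent, although both are taken over the same summits. At this depth a site seen in 1 mutant at 25 °C was not detectably more often seen again in that mutant than in the other.

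Summits that both strains shared at 25 °C were found again more often than the rest. Of the shared spt7-1180 summits 42.6% (41.2 to 44.0%) had a summit in spt7-1180 at 37 °C, 38.8% (37.4 to 40.2%) in spt8Δ at 37 °C and 32.8% (31.5 to 34.2%) in the wild type at 25 °C, where the last list was found at 25.4% (24.7 to 26.2%) of the spt7-1180-only and 21.6% (20.8 to 22.3%) of the spt8Δ-only summits. Away from tRNA genes the shares of the shared summits were 40.0%, 36.0% and 30.5%. Strong summits were shared more often, and they were also found again more often. Of 5 rank classes of the spt7-1180-only summits, the strongest had 40.5% in spt7-1180 and 35.3% in spt8Δ at 37 °C. The weakest had 26.1% and 20.6%. The part of strength in the gap between shared and unshared summits was not tested. At the level of genes, an upstream summit was present in spt7-1180 at 37 °C for 47.9% of the 993 genes found in spt7-1180 alone and 41.0% of the 1222 found in spt8Δ alone, and in spt8Δ at 37 °C for 46.9% and 43.9%. For genes found in both mutants these shares were 67.9% in spt7-1180 and 62.1% in spt8Δ, and over all genes 40.8% and 40.2%.

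**Figure D5:**
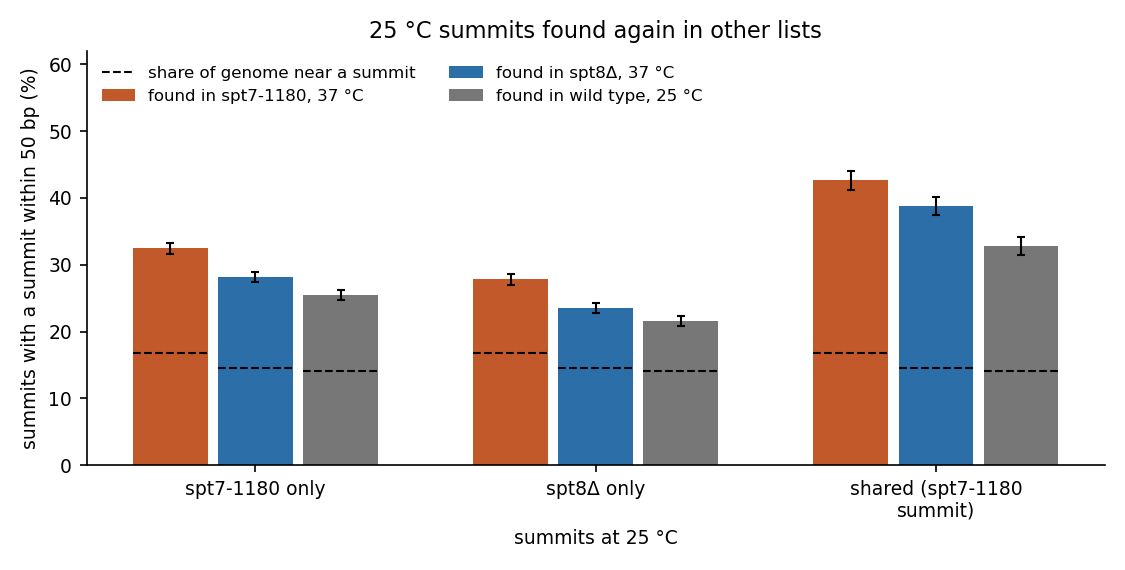
Share of 25 °C summits (%) with a summit within 50 bp in the 37 °C lists of spt7-1180 and spt8Δ and in the wild type at 25 °C, for summits found in spt7-1180 alone, in spt8Δ alone and in both; error bars are Wilson 95% intervals and dashed lines the share of the genome near a summit of each list. Shared summits are found again most often (42.6% in spt7-1180 at 37 °C), and the spt7-1180 bar is the highest in all 3 sets.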

How the data were processed

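Per the labels and the methods of the study, MYC-tagged Sus1 was immunoprecipitated and its DNA trimmed by lambda exonuclease (ChIP-exo), and reads were mapped to sacCer3 with BWA (0.6.2 in the submitters' processing notes, which also name CASAVA 1.7). The authors deposited 1 peak list per strain and temperature with a fold enrichment (a ratio) and -log10 p and q-values in the layout of MACS2, all with q under 0.05. The caller, its control and the pooling are not given in the sources used here.

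Summits within 50 bp counted as shared, set against the share of the genome that close to the other list. Positions came from RefSeq (R64), with 6002 protein-coding genes, 275 tRNA genes and upstream regions of 500 bp. Ranks were by fold enrichment within a list. Height and background were solved from fold enrichment and -log10 p under a Poisson model with a pseudocount of 1. Solved heights were within 0.05 of a whole number for at least 99.99% of peaks. RP genes (ribosomal proteins) were taken by symbol: RPL, RPS, RPP0, RPP1A and B, RPP2A and B.

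The genes named were the 10 best shared pairs, the 10 strongest summits of each strain alone, the 10 largest rank differences on each side, and members of the gene lists; others are said to be chosen later. Members, lists and alternatives were chosen with earlier results of these data known. Alternatives were a q under 1e-05, equal numbers of peaks, the 5000 strongest, no tRNA sites, peak midpoints, distances of 25 and 100 bp, peak overlaps, upstream regions of 300 and 1000 bp and ranks by -log10 q. Leaving out the 17 highest spt8Δ sites was added after seeing the data. Python 3.11.15, numpy 2.4.6, pandas 2.3.3, scipy 1.17.1 and matplotlib 3.10.9 were used, and the counting was tested on simulated data.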

Additional observations from a re-analysis of the deposited data

How the results depend on the processing

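The lists are pooled, so no replicate could be left out, and no paired analysis was possible because the lists carry no replicate numbers. The share of shared summits moved with the rule of matching. For spt7-1180 and for spt8Δ it was 15.6% and 16.97% within 25 bp, 41.5% and 45.2% within 100 bp, 37.5% and 41.7% by an overlap of 1 bp, 14.9% and 16.2% by a reciprocal overlap of 50%, and 27.5% and 29.97% between peak midpoints. It was 21.7% and 27.3% for peaks with q under 1e-05, 27.0% and 27.0% with 16593 peaks in each list, 15.1% and 15.1% among the 5000 strongest (where 4.18% of the genome lies near a summit of either list), and 25.4% and 27.7% away from tRNA genes. Genes with an upstream summit in both strains numbered 460 with 300 bp, 3184 with 1000 bp and 233 with the 5000 strongest peaks. The rank correlation was 0.20 with 300 bp, 0.42 with 1000 bp, 0.24 with the 5000 strongest and 0.24 away from tRNA genes. The difference in recurrence at 37 °C was for spt7-1180-only and spt8Δ-only summits 3.14 and -2.66 points within 25 bp, 6.41 and -5.40 within 100 bp, 0.404 and -0.949 with equal numbers of peaks, and with the 5000 strongest it changed sign, to -0.518 (-2.02 to 0.988) and 0.400 (-0.930 to 1.73). Without the 17 highest spt8Δ sites, an alternative chosen after seeing the data, all 6 results stayed within their intervals or within 1.5 times. Depth limits the weak sites: the lowest background was 22.2 reads in spt7-1180 and 7.99 in spt8Δ.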
